A study of Mus musculus with 12 samples.

Results

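The 9 genes considered here are 6 ligands of the fibroblast growth factor (FGF) family, *Fgf2*, *Fgf5*, *Fgf7*, *Fgf10*, *Fgf18* and *Fgf22*, and 3 FGF receptors, *Fgfr1*, *Fgfr2* and *Fgfr3*. They were taken by symbol from the 35976 genes in the count tables of 12 mouse scars, and all 9 had enough counts to be tested, with 18853 genes tested in all. The scars came from male mice aged 8 to 12 weeks, with 3 mice in each of 4 groups, sham and traction in Tem1WT/WT and in Tem1lacZ/lacZ mice. In Tem1lacZ/lacZ mice the *lacZ* reporter takes the place of the only exon of *Tem1* (listed as *Cd248*) in every cell of the animal, so the deficiency is not limited to fibroblasts, and the line had been crossed back to C57BL/6 J. Every mouse had a 1.5-cm back wound and, 6 days later, a device fixed over it. In the traction groups the device was lengthened by 1 mm/day to 8 mm. Sham mice wore the same device without lengthening. RNA came from a piece of whole scar, in which many cell types are mixed. In such bulk samples, fewer cells of a type and less RNA per cell cannot be told apart.

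FGFs are secreted proteins that bind heparan sulfate and signal through receptor tyrosine kinases. In skin, mesenchymal cells release *Fgf7* and *Fgf10*, which act on the epithelial form of *Fgfr2* on keratinocytes, while fibroblasts and endothelial cells mainly carry *Fgfr1* and respond to *Fgf2*. *Fgf5*, *Fgf18* and *Fgf22* are known from the hair follicle, where *Fgf5* ends the growth phase of the hair, *Fgf18* prolongs the resting phase and *Fgf22* belongs to the same subfamily as *Fgf7* and *Fgf10*. *Fgfr3* is found in keratinocytes and follicle epithelium. Epithelial and mesenchymal splice forms of a receptor share 1 count per gene in these tables, so they could not be separated.

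The sequence before the start of the gene is shown for *Fgf7*, *Fgf22* and *Fgfr3*, the ligand and receptor genes with the smallest p-values for traction in Tem1WT/WT mice among the ligands that were higher, the ligands that were lower and the receptors. The sequences are those of RefSeq for GRCm38.p6, all on the plus strand and read 5′ to 3′, and end before the first annotated transcript start. Capitals mark GC boxes (GGGCGG on either strand). The stretch shown for *Fgf7* is chr2:126034408-126034657, that for *Fgf22* is chr10:79754859-79755050 and that for *Fgfr3* is chr5:33721474-33721673.
Fgf7: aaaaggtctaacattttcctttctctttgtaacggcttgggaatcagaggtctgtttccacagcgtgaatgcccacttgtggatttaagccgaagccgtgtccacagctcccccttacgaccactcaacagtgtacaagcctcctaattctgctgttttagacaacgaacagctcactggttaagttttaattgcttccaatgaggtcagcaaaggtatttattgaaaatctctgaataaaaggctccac
Fgf22: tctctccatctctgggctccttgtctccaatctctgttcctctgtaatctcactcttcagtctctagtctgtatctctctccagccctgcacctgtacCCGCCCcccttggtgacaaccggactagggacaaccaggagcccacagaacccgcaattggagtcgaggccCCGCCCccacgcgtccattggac
Fgfr3: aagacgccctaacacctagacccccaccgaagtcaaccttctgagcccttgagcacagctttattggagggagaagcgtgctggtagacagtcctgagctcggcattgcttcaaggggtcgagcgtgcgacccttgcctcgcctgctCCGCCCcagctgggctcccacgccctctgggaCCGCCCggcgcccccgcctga
No GC box was found in the 250 bases before the start of *Fgf7*, in which G and C made up 43.6% of the bases. The window of this length before a listed start held 3 GC boxes for *Fgf22* (62.4% G and C) and 3 for *Fgfr3* (66.8% G and C), of which 2 each lie in the stretch shown. The rest of these windows lies from the first annotated transcript start on. Another listed start of *Fgfr3* has the window chr5:33722056-33722305, which held 2 GC boxes (72.8% G and C) and is not shown. In all, 32.7% of 32851 RefSeq promoter windows of this length held a GC box. No window of the 3 genes held a TATA box (TATAAA, in 12.4% of all windows), an AP-1 site (TGANTCA, 6.7%) or a TEAD site (GGAATG, 12.6%), on either strand. These are matches of letters only, and nothing about binding was measured.

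By RefSeq, *Fgfr1* lies on chromosome 8 (25518759 to 25575718), *Fgfr2* on chromosome 7 (130162451 to 130266808) and *Fgfr3* on chromosome 5 (33721724 to 33737068). Among the ligands, *Fgf2* lies on chromosome 3 (37348477 to 37410106), *Fgf5* on chromosome 5 (98254184 to 98277033), *Fgf7* on chromosome 2 (126034658 to 126091185), *Fgf10* on chromosome 13 (118714699 to 118792573), *Fgf18* on chromosome 11 (33116970 to 33147400) and *Fgf22* on chromosome 10 (79755051 to 79757795). Only *Fgfr2* and *Fgf18* are on the minus strand. Exons of other annotated genes overlap some of these genes. *G630022F23Rik* shares 13.9% of the exon bases of *Fgfr3* and *Nudt6* shares 9.4% of those of *Fgf2*, both on the opposite strand. For *Fgf10*, *Fgf22* and *Fgfr1* the part shared with a gene on the opposite strand was 1.7% to 3.6%. On the same strand, *Gm43439* shares 3.8% of the exon bases of *Fgf2* and *Ctbp2* shares 3.0% of those of *Fgfr2*. The strand setting used in counting is not given in the sources used here, so reads from the opposite-strand stretches cannot be assigned to a single gene. Reads from the same-strand stretches could not be separated by strand in any case.

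Library totals ranged from 41536788 to 64644293 counts. The least covered members were *Fgf2* with 26 to 159 counts per library, *Fgf18* with 41 to 239 and *Fgf5* with 13 to 351, and the best covered was *Fgfr1* with 3354 to 15311. *Cd248* followed the genotype in all 12 libraries, with 3883 to 16413 counts in Tem1WT/WT mice and 0 to 13 in Tem1lacZ/lacZ mice. *Krt5*, a keratin of basal keratinocytes, had 116133 to 209709 counts in every library. Replicate 1 of the Tem1WT/WT traction group stood apart in its neutrophil markers, whose summed level was 6799 CPM there and 62.2 to 609 CPM in the 11 other libraries, so fold changes are also given without it. Levels below are CPM normalized by the TMM method, which scales counts to a common effective library size. Differences are log2 fold changes from edgeR's quasi-likelihood test with Benjamini-Hochberg adjustment over all 18853 genes, and a gene with an adjusted p under 0.05 is called.

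Per length, as RPKM (CPM divided by the length of all annotated exons in kilobases), the receptors and *Fgf7* stood above the other ligands. The mean level over all 12 libraries was 16.2 RPKM for *Fgfr1*, 10.1 for *Fgfr3*, 9.23 for *Fgf7* and 6.71 for *Fgfr2*. It was 3.48 RPKM for *Fgf22*, 2.50 for *Fgf18*, 1.02 for *Fgf10*, 0.920 for *Fgf5* and 0.257 for *Fgf2*. Neighbours in this order often changed places from library to library. *Fgfr1* was above *Fgfr3* in 8 of 12 libraries, *Fgfr3* above *Fgf7* in 9, *Fgf7* above *Fgfr2* in 7, *Fgf22* above *Fgf18* in 8 and *Fgf10* above *Fgf5* in 5, so these neighbours could not be ranked firmly. The steps from *Fgfr2* to *Fgf22* and from *Fgf18* to *Fgf10* held in 11 of 12 libraries each, and that from *Fgf5* to *Fgf2* in 10. With the length of the longest transcript in place of all exons, 7 of the 9 ranks were the same and *Fgf7* and *Fgfr2* traded places.

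With traction in Tem1WT/WT mice the receptors had values of opposite sign. *Fgfr3* fell to 0.521-fold of its sham level and passed the test. *Fgfr2* was at 0.527-fold and *Fgfr1* at 1.87-fold of sham, and neither passed. In all, 1 of the 9 members was called, against 9.15% of all genes tested (5.61% called higher and 3.54% called lower with traction). At an unadjusted p under 0.05 there were 5 of 9, *Fgf7*, *Fgf22*, *Fgfr1*, *Fgfr2* and *Fgfr3*, against 31.4% of all genes. The libraries of the groups did not overlap for 6 of 9, against 35.7% of all genes. These were *Fgf5*, *Fgf10*, *Fgf22*, *Fgfr2* and *Fgfr3*, all lower with traction, and *Fgfr1*, which was higher. The median log2 fold change of the members was −0.92 and that of all genes −0.01.

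*Fgfr3* was at 110.3, 97.2 and 67.0 CPM in the 3 sham scars and at 40.4, 49.1 and 53.7 CPM in the 3 traction scars of Tem1WT/WT mice. Every traction scar was below every sham scar. The log2 fold change was −0.94 (SE 0.22, edgeR adjusted p = 0.0344), and without replicate 1 of the traction group it was −0.85 (adjusted p = 0.0698). The call was also lost without replicate 3 of that group (adjusted p = 0.0536), without replicate 1 (0.133) or replicate 2 (0.101) of the Tem1WT/WT sham group, without replicate 3 of the Tem1lacZ/lacZ sham group (0.0512), and with only the 6 libraries compared in the fit (0.0852). Of 21 alternatives 15 kept it, with log2 fold changes of −1.11 to −0.79 over all of them.

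*Fgfr2*, the receptor through which *Fgf7*, *Fgf10* and *Fgf22* reach keratinocytes, was at 123, 95.3 and 65.3 CPM in the sham scars and at 32.1, 59.6 and 57.7 CPM in the traction scars. The groups were apart, but the lowest sham scar was close to the highest traction scars. Its log2 fold change was −0.92 (SE 0.29, edgeR adjusted p = 0.0626). *Fgfr1*, the main FGF receptor of mesenchymal cells, was at 138, 121 and 144 CPM in the sham scars and at 240.2, 197 and 315 CPM in the traction scars. All traction scars lay above all sham scars and were also more spread out. Its log2 fold change was 0.90 (SE 0.29, edgeR adjusted p = 0.0661). DESeq2's Wald test, run as an alternative, called both, with adjusted p of 0.0229 for *Fgfr2* and 0.0211 for *Fgfr1*, and edgeR called *Fgfr1* without replicate 2 of the traction group (0.0431) or replicate 1 of the Tem1lacZ/lacZ traction group (0.0347).

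Among the ligands, *Fgf7*, the keratinocyte growth factor, was at 22.5, 28.2 and 19.1 CPM in the Tem1WT/WT sham scars and at 85.7, 51.0 and 24.0 CPM in the traction scars. The third traction scar was within the sham range, so the groups overlapped. The log2 fold change was 1.20 (SE 0.40, edgeR adjusted p = 0.0737), without replicate 1 of the traction group 0.68 (adjusted p = 0.239), and without replicate 3 of that group 1.56 (adjusted p = 0.0365). *Fgf7* was thus past the threshold only where the lowest traction scar was left out or in DESeq2 (adjusted p = 0.0220).

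*Fgf22* went the other way, from 6.16, 11.1 and 9.75 CPM in the sham scars to 2.66, 5.12 and 4.77 CPM in the traction scars of Tem1WT/WT mice. All 3 traction scars were below the sham scars. The log2 fold change was −1.10 (SE 0.38, edgeR adjusted p = 0.0802; 0.0324 in DESeq2). *Fgf10*, the nearest relative of *Fgf7* in the family, was at 3.91, 8.01 and 5.67 CPM in the sham scars and at 3.02, 2.96 and 3.02 CPM in the traction scars. The traction scars were almost equal and lay just under the lowest sham scar. The log2 fold change of −0.97 (SE 0.46) did not pass (edgeR adjusted p = 0.178).

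*Fgf5* was at 3.45, 5.09 and 2.41 CPM in the sham scars and at 0.476, 1.63 and 1.79 CPM in the traction scars of Tem1WT/WT mice. The groups did not overlap, but the difference did not pass, with a log2 fold change of −1.49 (SE 0.71, edgeR adjusted p = 0.177). *Fgf18* was at 5.19, 2.02 and 3.55 CPM in the sham scars and at 0.976, 2.91 and 3.39 CPM in the traction scars (log2 fold change −0.56, SE 0.52, edgeR adjusted p = 0.490). *Fgf2*, a growth factor for fibroblasts and endothelial cells, was at 1.56, 2.31 and 1.75 CPM and at 2.78, 1.83 and 2.34 CPM (0.31, SE 0.46, adjusted p = 0.685). Both genes overlapped between sham and traction. Without replicate 1 of the traction group, which had the least *Fgf18* and the most *Fgf2* of its group, the log2 fold changes were −0.20 for *Fgf18* and 0.13 for *Fgf2*. They were then −1.11 for *Fgf5*, −0.99 for *Fgf10*, −0.88 for *Fgf22*, −0.71 for *Fgfr2* and 0.91 for *Fgfr1*. In this setting none of the 9 was called by edgeR, with adjusted p of 0.0698 (*Fgfr3*) to 0.894 (*Fgf2*).

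**Figure D1:**
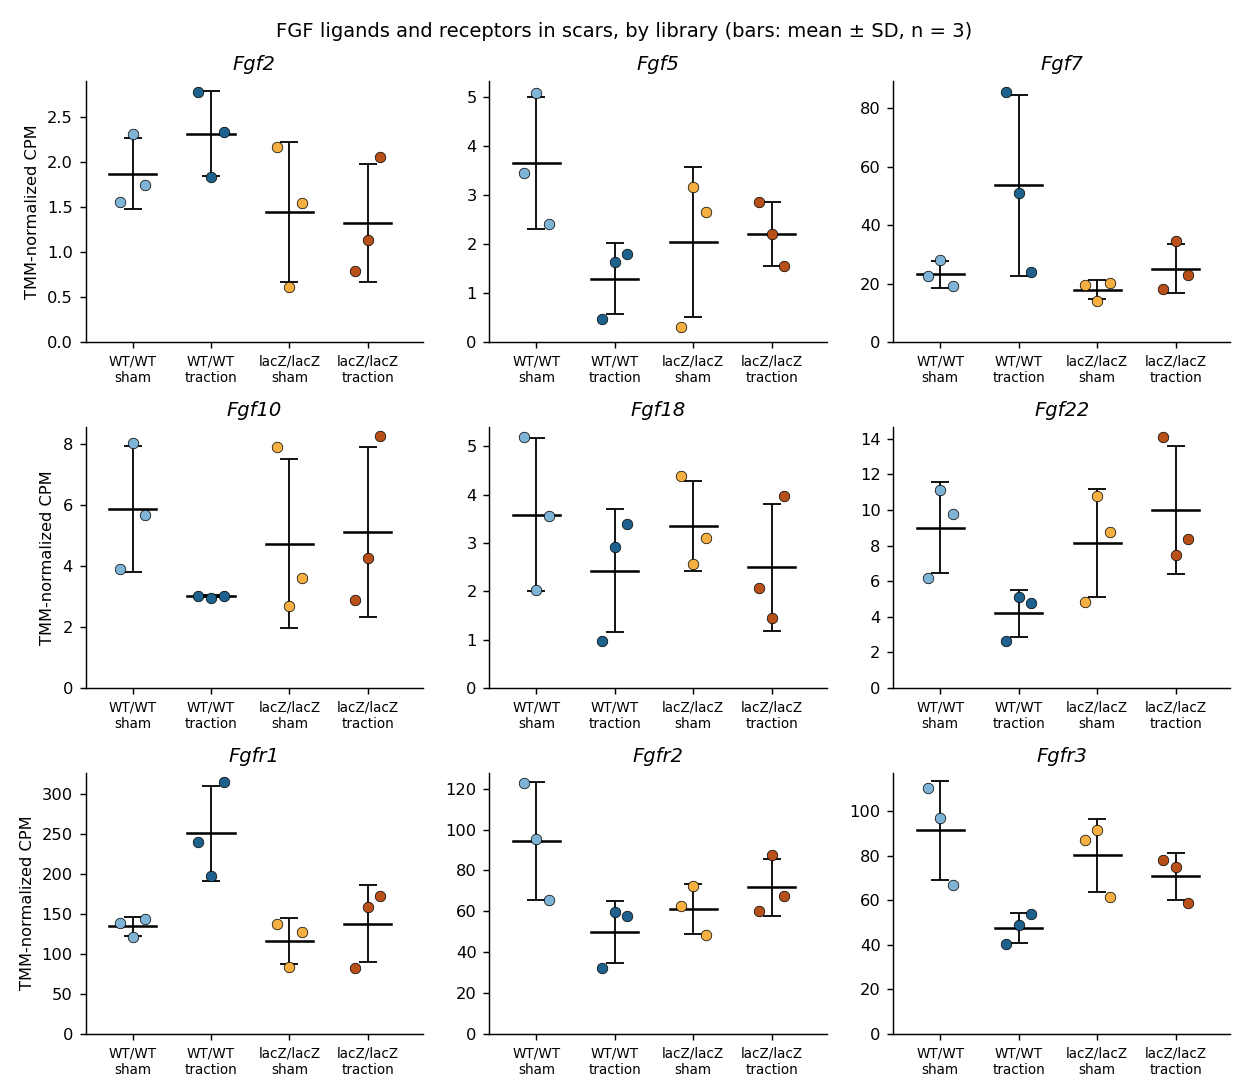
Normalized level (TMM-normalized CPM, linear axis from 0) of each of the 9 genes in every library, by group, with points for mice and bars for the mean and SD of 3 mice. In the Tem1WT/WT mice, the traction points of *Fgf5*, *Fgf10*, *Fgf22*, *Fgfr2* and *Fgfr3* lie below the sham points and those of *Fgfr1* above them, while in Tem1lacZ/lacZ mice the points of all 9 genes overlap.

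In Tem1lacZ/lacZ mice, traction gave no such separation. None of the 9 members was called, and 0 of 9 had an unadjusted p under 0.05, against 0% and 8.12% of all genes. The libraries of the groups overlapped for all 9, whereas 12.9% of all genes showed no overlap. The median log2 fold change of the members was 0.12. DESeq2 called 0 members as well. Without replicate 1 of the Tem1lacZ/lacZ traction group edgeR called 73 genes, 72 of them higher, and still 0 members.

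*Fgfr3* was at 87.3, 91.8 and 61.5 CPM in the Tem1lacZ/lacZ sham scars and at 78.3, 74.9 and 58.9 CPM in the traction scars, with a log2 fold change of −0.18 (95% interval −0.66 to 0.30). *Fgfr2* was at 62.4, 72.5 and 48.3 CPM and at 60.1, 87.5 and 67.4 CPM, with a log2 fold change of 0.23 (−0.40 to 0.86). *Fgfr1* was at 137, 83.0 and 127 CPM and at 82.7, 158 and 172 CPM, with a log2 fold change of 0.25 (−0.37 to 0.87). All 3 intervals spanned 0 and were wide, so that of *Fgfr1* also nearly reached the value seen in Tem1WT/WT mice.

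*Fgf7* was at 19.7, 14.1 and 20.1 CPM in the Tem1lacZ/lacZ sham scars and at 18.1, 34.5 and 22.8 CPM in the traction scars (log2 fold change 0.49, 95% interval −0.38 to 1.35). *Fgf22* was at 4.85, 10.8 and 8.78 CPM and at 14.1, 7.49 and 8.35 CPM (0.29, −0.53 to 1.12), and *Fgf10* at 7.88, 2.70 and 3.59 CPM and at 2.88, 4.25 and 8.24 CPM (0.12, −0.89 to 1.13). The highest traction scar was replicate 2 for *Fgf7*, replicate 1 for *Fgf22* and replicate 3 for *Fgf10*. *Fgf5* was at 0.309, 3.16 and 2.66 CPM and at 2.86, 2.21 and 1.56 CPM, *Fgf18* at 4.38, 2.56 and 3.11 CPM and at 2.07, 1.45 and 3.96 CPM, and *Fgf2* at 2.17, 0.617 and 1.55 CPM and at 0.789, 1.13 and 2.06 CPM. Their log2 fold changes were 0.11 (95% interval −1.42 to 1.64), −0.42 (−1.57 to 0.72) and −0.12 (−1.15 to 0.90), in the same order.

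**Figure D2:**
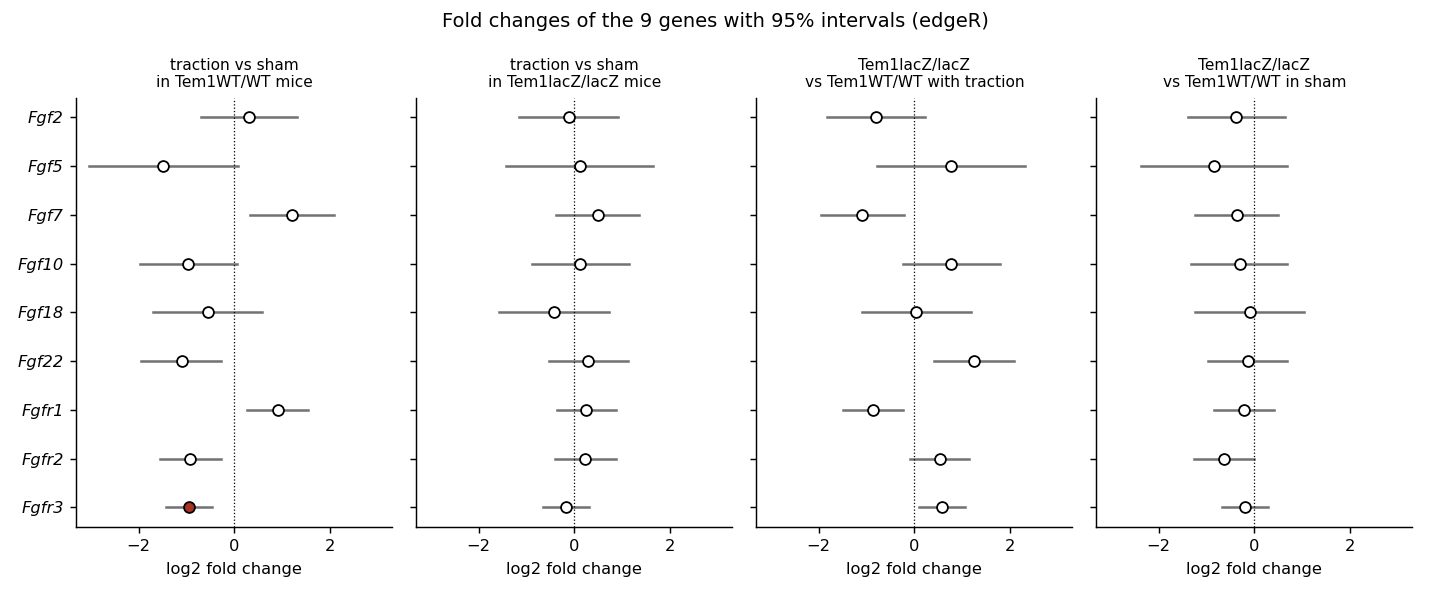
Log2 fold change (x axis) of each of the 9 genes in 4 comparisons, 1 panel each, with 95% intervals from edgeR as lines, a filled point for an adjusted p under 0.05 and open points otherwise. The filled point is *Fgfr3* at −0.94 with traction in Tem1WT/WT mice, and the intervals with traction in Tem1lacZ/lacZ mice all span 0.

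The genotypes were next compared under traction. None of the 9 members was called by edgeR, against 0.106% of all genes. At an unadjusted p under 0.05 there were 4, with lower levels of *Fgfr1* and *Fgf7* and higher levels of *Fgf22* and *Fgfr3* in Tem1lacZ/lacZ than in Tem1WT/WT scars. These 4 of 9 compare with 26.1% of all genes, and the 4 members whose groups did not overlap, *Fgf22*, *Fgfr1*, *Fgfr2* and *Fgfr3*, with 26.6%. The Tem1WT/WT traction libraries are the same as those compared with sham above, so the 2 sets of differences are not independent.

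*Fgf22* had the largest of these differences, 4.18 ± 1.33 CPM in Tem1WT/WT and 9.99 ± 3.60 CPM in Tem1lacZ/lacZ traction scars (SD, n = 3 each), a log2 fold change of 1.25 (SE 0.38, edgeR adjusted p = 0.0992; 0.0234 in DESeq2). For *Fgfr1* the levels were 251 ± 59.4 and 138 ± 48.0 CPM, with a log2 fold change of −0.87 (SE 0.29, edgeR adjusted p = 0.112; 0.0416 in DESeq2). *Fgf22* and *Fgfr1* were the 2 members that DESeq2 called here, where it called 2309 genes in all and edgeR called 20. *Fgf7* was at 53.6 ± 31.0 and 25.1 ± 8.44 CPM (−1.09, SE 0.40, edgeR adjusted p = 0.130), and without replicate 1 of the Tem1WT/WT traction group the log2 fold change was −0.55 (adjusted p = 0.374). *Fgfr3* was at 47.7 ± 6.77 and 70.7 ± 10.4 CPM (0.57, SE 0.22, edgeR adjusted p = 0.143), and *Fgfr2* at 49.8 ± 15.3 and 71.7 ± 14.2 CPM (0.53, SE 0.29, adjusted p = 0.263). Without the same library these 2 values were 0.49 and 0.32, that of *Fgf22* was 1.04 and that of *Fgfr1* −0.85. The log2 fold changes of *Fgf2*, *Fgf5*, *Fgf10* and *Fgf18* were −0.80, 0.76, 0.77 and 0.04, and their groups overlapped.

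In the sham groups the genotypes were closer. All 9 members had a negative log2 fold change for Tem1lacZ/lacZ against Tem1WT/WT, from −0.84 (*Fgf5*) to −0.10 (*Fgf18*), with a median of −0.31, and 0 of 9 was called by edgeR or by DESeq2, against 0.0106% of all genes in edgeR. For *Fgf18* the sign turned with limma-voom and without replicate 1 of the Tem1WT/WT or replicate 2 of the Tem1lacZ/lacZ sham group, and for *Fgf22* it turned without replicate 2 of the Tem1WT/WT or replicate 1 of the Tem1lacZ/lacZ sham group. Only *Fgfr2* had an unadjusted p under 0.05 (11.7% of all genes did), at 94.5 ± 28.9 CPM in Tem1WT/WT and 61.1 ± 12.1 CPM in Tem1lacZ/lacZ sham scars (SD, n = 3 each; log2 fold change −0.63, SE 0.29, edgeR adjusted p = 0.429). None of the 9 was without overlap, against 26.8% of all genes.

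Whether traction acted differently in the 2 genotypes was tested by the interaction term, which called 0 of 9 members and 0% of all genes. At an unadjusted p under 0.05 there were 3 of 9 members, *Fgfr2* (1.16, SE 0.40), *Fgf22* (1.39, SE 0.53) and *Fgfr3* (0.76, SE 0.31), against 8.91% of all genes. A positive term means that the value for traction was higher in Tem1lacZ/lacZ than in Tem1WT/WT mice. The smallest edgeR adjusted p among the members was 0.548, DESeq2 also called 0 of them, and a different response of these genes to traction in the 2 genotypes was therefore not shown.

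The receptors had values of opposite sign with traction in Tem1WT/WT mice, although only that of *Fgfr3* passed the test. The share of *Fgfr1* in the summed level of the 3 receptors per length was computed within each library, where it does not depend on library scaling. The share was 33.9%, 34.9% and 48.1% in the Tem1WT/WT sham scars and 73.6%, 61.3% and 70.9% in the traction scars. It was 43.2%, 29.8% and 49.2% in the Tem1lacZ/lacZ sham scars and 33.3%, 45.8% and 54.1% in the traction scars. The 3 Tem1WT/WT traction scars lay above all 9 others. The means of the Tem1WT/WT groups, 39.0% ± 7.94 and 68.6% ± 6.46 (SD, n = 3 each), differed with p = 0.1 in a two-sided exact permutation test, the smallest p that 3 against 3 can give, and 0.267 after adjustment over the 8 tests of this kind. In Tem1lacZ/lacZ mice they were 40.7% ± 9.95 and 44.4% ± 10.5 (exact permutation p = 0.600). This measure uses the values compared above and adds no independent evidence.

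The ratio of *Fgf7* to *Fgf10* per length, a pair of ligands for the same receptor form, was 8.17, 4.98 and 4.77 in the Tem1WT/WT sham scars and 40.2, 24.4 and 11.2 in the traction scars. In Tem1lacZ/lacZ mice it was 3.54, 7.37 and 7.92 in sham and 8.91, 11.5 and 3.91 in traction scars. The Tem1WT/WT traction scars were above their sham scars (exact permutation p = 0.1, the smallest possible, adjusted 0.267). The lowest of them was within the range of the Tem1lacZ/lacZ traction scars (exact permutation p = 0.2 between genotypes). The ratio, too, uses the values compared above and adds no independent evidence.

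**Figure D3:**
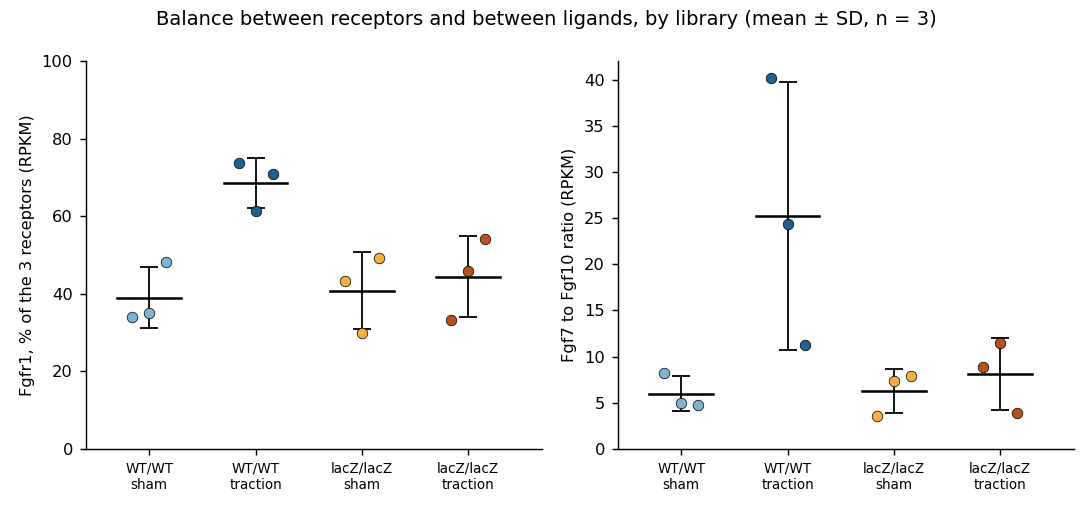
Share of *Fgfr1* in the 3 receptors (left, % of summed RPKM) and ratio of *Fgf7* to *Fgf10* (right, RPKM ratio) in every library, by group, with the mean and SD of 3 mice. The 3 Tem1WT/WT traction libraries have *Fgfr1* shares of 61.3% to 73.6%, and the 9 other libraries lie between 29.8% and 54.1%.

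The other genes of the pathway were followed in 6 lists with 55 tested genes. With traction in Tem1WT/WT mice edgeR called 8 of the 55 (14.5%), 7 higher and 1 lower, against 9.15% of all genes. The lists were chosen with earlier results of these data known, so their shares of called genes are descriptions only. Of 12 further secreted ligands, *Fgf3*, *Fgf4*, *Fgf6*, *Fgf8*, *Fgf15*, *Fgf17* and *Fgf20* did not pass the filter on low counts and had at most 14 counts in a library. Of the other 5, *Fgf1*, *Fgf9*, *Fgf16*, *Fgf21* and *Fgf23*, edgeR called 0 with traction in Tem1WT/WT mice, where 2 had an unadjusted p under 0.05 (*Fgf1* lower and *Fgf23* higher) and DESeq2 called 2. *Fgf23*, a hormone of phosphate balance, was at 0.130, 0.145 and 0.934 CPM in sham and at 15.1, 3.20 and 0.0411 CPM in traction scars. Its highest value was in replicate 1, the library that stood apart, and the third traction scar was the lowest of all. *Fgf1*, which binds all FGF receptors, was at 9.57 to 18.9 CPM in the Tem1WT/WT sham scars and at 4.14 to 7.11 CPM in the traction scars (log2 fold change −1.07, SE 0.32, edgeR adjusted p = 0.0547). It was thus lower in every traction scar and just short of the threshold. The median log2 fold change was −0.83 for the 5 ligands with traction in Tem1WT/WT mice, and −0.61 for the 4 intracellular FGF homologous factors, *Fgf11* to *Fgf14*, which are not secreted. Of the latter 0 were called by edgeR or DESeq2 and 0 had an unadjusted p under 0.05, with the smallest p for *Fgf13* (−0.93, SE 0.44, edgeR adjusted p = 0.176).

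Among 7 tested genes for other receptors, co-receptors and binding proteins (*Kl* was under the filter), 1 was called lower with traction in Tem1WT/WT mice and 0 higher. This was *Flrt3*, a membrane protein that binds FGF receptors, at 145, 180.4 and 138 CPM in sham and at 75.1, 87.9 and 44.4 CPM in traction scars (log2 fold change −1.16, SE 0.30, edgeR adjusted p = 0.0397). A single call in 7 genes is near the 9.15% of all genes called in either direction (3.54% were called lower). *Fgfr4* was at 3.33 ± 0.845 and 3.27 ± 1.66 CPM (SD, n = 3 each; −0.02, adjusted p = 0.976). The list's median log2 fold change was −0.08.

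Of 9 adaptors and early signalling genes, 2 were called higher and 0 lower with traction in Tem1WT/WT mice, against 5.61% and 3.54% of all genes. *Grb2*, which links activated receptors to Ras, had a log2 fold change of 0.91 (SE 0.23, edgeR adjusted p = 0.0381) and *Shc1*, another adaptor, one of 0.74 (SE 0.17, adjusted p = 0.0329). In both, the 3 traction scars were above the 3 sham scars, with 88.3 to 145 against 56.0 to 62.8 CPM for *Grb2* and 106 to 142 against 67.4 to 86.8 CPM for *Shc1*. Both adaptors serve many receptor tyrosine kinases besides FGF receptors. The list's median was 0.27.

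Of 14 feedback inhibitors and ETS targets, which FGF signalling induces and which limit or carry it, 1 was called higher and 0 lower. This is not above the 9.15% of all genes called in either direction (5.61% higher and 3.54% lower). *Spred3*, an inhibitor of Ras signalling, had a log2 fold change of 1.26 (SE 0.32, edgeR adjusted p = 0.0387), from 1.80 to 3.24 CPM in sham to 4.20 to 6.86 CPM in traction scars. The list's median was 0.18. *Etv5*, a transcription factor of the ETS family, had the smallest p of the list for genotype in sham, at 20.7 ± 5.09 CPM in Tem1WT/WT and 11.9 ± 1.18 CPM in Tem1lacZ/lacZ scars (SD, n = 3 each; log2 fold change −0.80, SE 0.22, edgeR adjusted p = 0.409).

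Of 16 genes for the carriers and enzymes of heparan sulfate, on which FGFs depend to bind their receptors, 4 were called higher and 0 lower with traction in Tem1WT/WT mice, against 5.61% and 3.54% of all genes. This was the longest of the 6 lists. *Gpc1*, a core protein that carries heparan sulfate at the cell surface, was at 85.2, 83.8 and 79.5 CPM in sham and at 244, 180.2 and 198 CPM in traction scars (log2 fold change 1.32, SE 0.17, edgeR adjusted p = 0.0184). The scars of each group were close together and the groups far apart. *Sulf1*, an enzyme that removes sulfate groups from heparan sulfate, had a log2 fold change of 1.01 (SE 0.25, adjusted p = 0.0372), *Ndst1*, which adds them, one of 0.79 (SE 0.19, adjusted p = 0.0358), and *Ext1*, which extends the chains, one of 0.77 (SE 0.19, adjusted p = 0.0357). The list's median was 0.59, and 14 of 16 had a positive value.

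With traction in Tem1lacZ/lacZ mice, edgeR called 0 genes of the 6 lists, and the smallest adjusted p was 0.598. At an unadjusted p under 0.05 there were 9 of the 55 genes (16.4%), all higher, against 8.12% of all genes, among them *Gpc1* (log2 fold change 0.50, SE 0.16), *Grb2* (0.64, SE 0.23), *Etv5* (0.64, SE 0.22) and *Fgfr4* (1.03, SE 0.40). Between genotypes with traction, *Gpc1* was called lower in Tem1lacZ/lacZ mice, which had 94.0, 117 and 90.1 CPM (log2 fold change −1.05, SE 0.16, edgeR adjusted p = 0.0478). It was the only called gene of the 55 there (1.82%), against 0.106% of all genes. At an unadjusted p under 0.05, 17 of the 55 were lower and 2 higher (34.5%), against 26.1% of all genes. The call of *Gpc1* was kept in 4 of 21 alternatives. *Sulf1* was at 287, 302 and 365 CPM in the Tem1WT/WT and at 139, 136 and 105 CPM in the Tem1lacZ/lacZ traction scars, and its interaction term was −1.50 (SE 0.35, edgeR adjusted p = 0.548). With edgeR the lists had 0 calls between genotypes in sham and 0 for the interaction, with 6 (10.9%) and 4 (7.27%) of the 55 genes at an unadjusted p under 0.05, no more than the 11.7% and 8.91% of all genes.

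The 8 pathway calls with traction in Tem1WT/WT mice depended on the libraries used. All 8 were lost with only the 6 libraries compared and without replicate 1 or replicate 2 of the Tem1WT/WT sham group. Without replicate 1 of the Tem1WT/WT traction group *Gpc1* was the only gene still called (1.17, edgeR adjusted p = 0.0344), and the others had adjusted p of 0.0557 to 0.0980 with the same direction. *Gpc1* was called in 18 of 21 alternatives and the other 7 genes in 11 to 15.

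**Figure D4:**
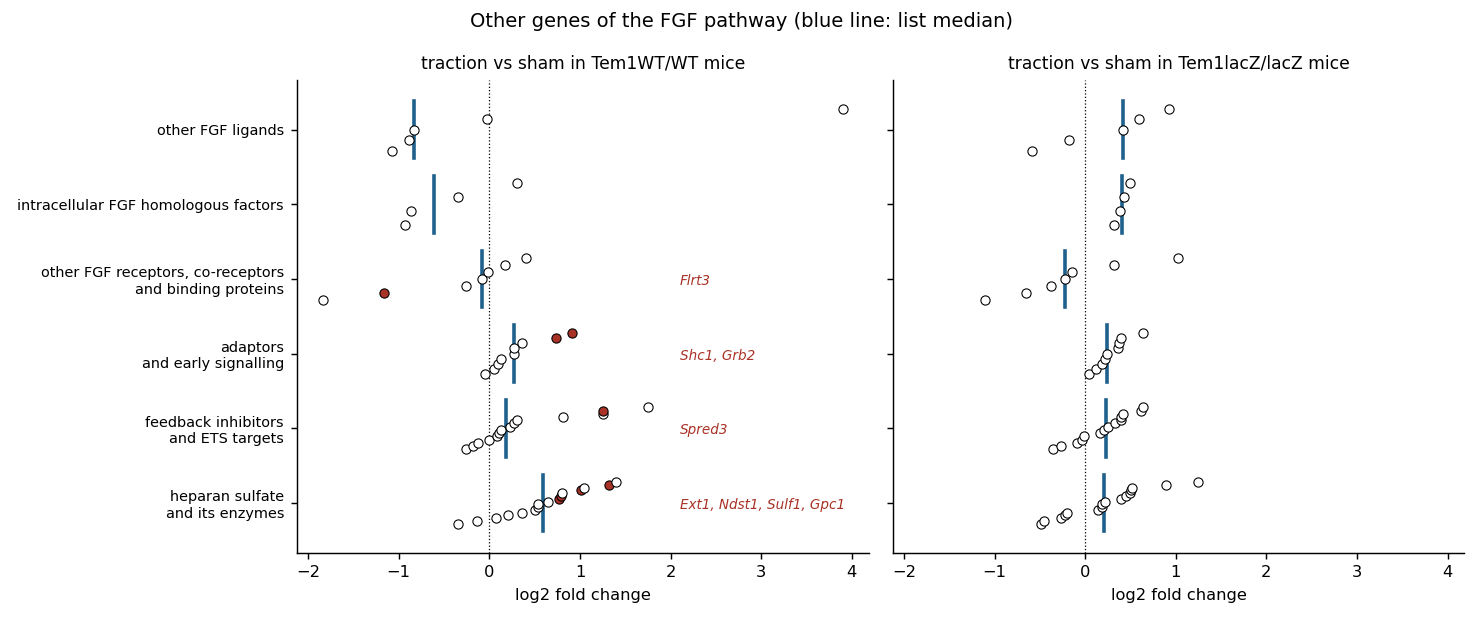
Log2 fold change with traction (x axis) of every tested gene of 6 FGF pathway lists in Tem1WT/WT (left) and Tem1lacZ/lacZ mice (right), with filled points and names for genes with an edgeR adjusted p under 0.05 and a blue line at each list's median. The 8 filled points are all on the left, 4 of them in the heparan sulfate list, whose median is 0.59 on the left and 0.20 on the right.

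Cell type markers moved with some of these results. The summed level of 12 hair follicle epithelium markers was 15617 to 29038 CPM in Tem1WT/WT sham, 4297 to 7813 CPM in Tem1WT/WT traction, 4107 to 21823 CPM in Tem1lacZ/lacZ sham and 8173 to 14048 CPM in Tem1lacZ/lacZ traction scars. With traction in Tem1WT/WT mice 3 of the 12 were called lower and 0 higher (median log2 fold change −1.78), against 3.54% and 5.61% of all genes. Lower was also the direction of *Fgf5*, *Fgf10*, *Fgf18*, *Fgf22*, *Fgfr2* and *Fgfr3*. The library with the least *Fgf5*, replicate 1 of the Tem1lacZ/lacZ sham group at 0.309 CPM, also had the lowest hair follicle sum, 4107 CPM. The 6 dermal papilla markers had a median of −1.40 with 0 called. The 10 markers of epidermal keratinocytes, where *Fgfr2* and *Fgfr3* are also found, had sums of 11421 to 16851 CPM in sham and 14344 to 21119 CPM in traction scars of Tem1WT/WT mice, a median of 0.19 and 0 called. Of the 10, 6 had a positive and 4 a negative value. At an unadjusted p under 0.05 *Dsc3* (−0.80) and *Trp63* (−0.66) were lower and *Itga6* (0.65) was higher, where 31.4% of all genes passed.

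The 9 fibroblast markers summed to 28558 to 48574 CPM in sham and 46952 to 122285 CPM in traction scars of Tem1WT/WT mice, so the groups overlapped. Of the 9, 1 was called higher (*Pdgfra*), a share near the 9.15% of all genes called in either direction (5.61% higher). Positive values were seen in 7 and negative values in 2 (*Dcn* −0.09 and *Dpt* −0.38), and the median was 0.55. The 8 endothelial markers summed to 328 to 496 and 840.0 to 962 CPM, with 5 called higher, against 5.61% of all genes, and a median of 1.12. The endothelial list had the direction of *Fgfr1* and *Fgf7*. Of 7 tested neutrophil markers 4 were called higher (median 4.70), against 5.61% of all genes. Their sums were 6799, 609 and 287 CPM in the traction scars, the same order as the *Fgf7* levels of 85.7, 51.0 and 24.0 CPM in these libraries. In the Tem1lacZ/lacZ traction scars the orders differed, with neutrophil sums of 529.7, 264 and 248 CPM and *Fgf7* at 18.1, 34.5 and 22.8 CPM. With traction in Tem1WT/WT mice macrophage markers had a median of 0.28, adipocyte markers one of −1.28 and skeletal muscle markers one of −2.91. In each of these lists 0 of 8 were called. All 8 skeletal muscle markers were lower with an unadjusted p under 0.05, against 31.4% of all genes at that threshold. The only markers at 0 in any library were *Ngp* and *Camp*, granule genes of young neutrophils, at 0 in 2 libraries each. The part of cell composition in the values of the FGF genes was not tested.

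Across the 12 libraries, Pearson's r of log2 CPM with the log2 sum of the hair follicle list was 0.87 for *Fgf5*, 0.81 for *Fgf22*, 0.64 for *Fgfr3* and 0.61 for *Fgfr2*. It was 0.07 for *Fgf10* and 0.01 for *Fgf18*. With the keratinocyte list r was −0.21 for *Fgfr3* and −0.49 for *Fgfr2*. Larger in size than with the hair follicle list were the values of both receptors with the neutrophil list, −0.81 for *Fgfr2* and −0.77 for *Fgfr3*. So was that of *Fgfr3* with the endothelial list, −0.81. About equal to the hair follicle values were 0.65 for *Fgfr3* with the skeletal muscle list and 0.62 for *Fgfr2* with the dermal papilla list. *Fgfr1* had r of 0.87 with the endothelial, 0.86 with the fibroblast, 0.79 with the macrophage and −0.72 with the hair follicle list. For *Fgf7* it was 0.76 with the neutrophil, 0.71 with the endothelial and 0.43 with the fibroblast list, and for *Fgf10* 0.72 with the adipocyte list. Other values were 0.81 for *Fgf5* with the dermal papilla, −0.63 for *Fgf22* with the endothelial and −0.71 for *Fgf18* with the neutrophil list. These values describe 12 libraries that share their groups and normalization, and no p is given.

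**Figure D5:**
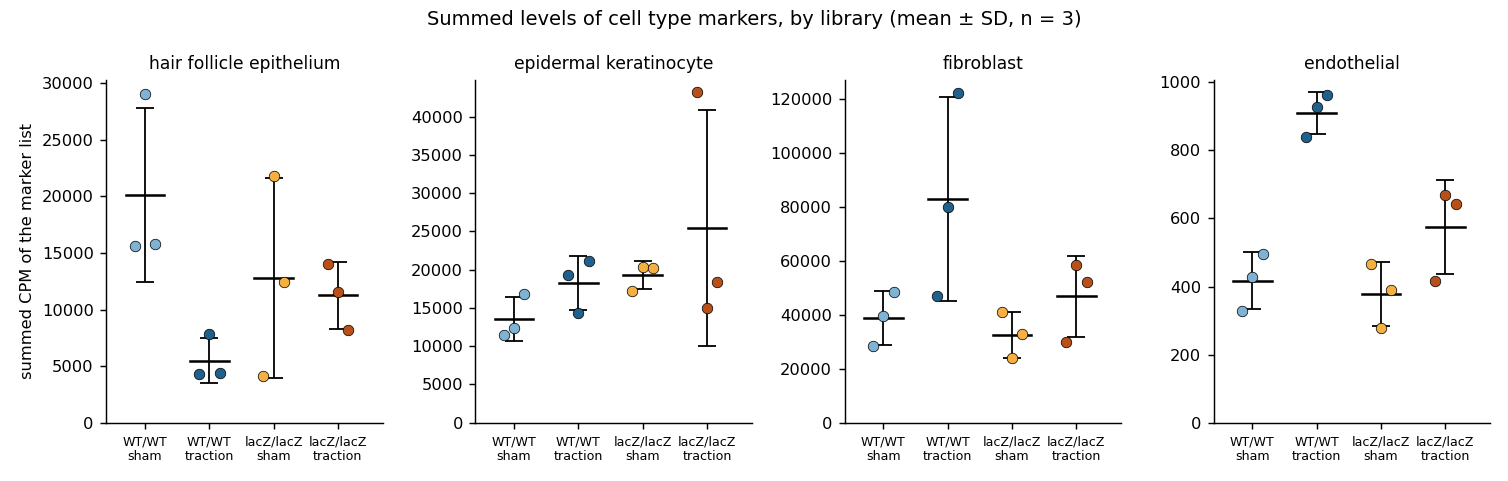
Summed level (CPM) of 4 marker lists in every library, by group, with the mean and SD of 3 mice. In Tem1WT/WT mice the traction points are below the sham points for hair follicle epithelium (4297 to 7813 against 15617 to 29038 CPM) and above them for endothelial markers (840.0 to 962 against 328 to 496 CPM).

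Among the members themselves, the closest pair was *Fgfr2* and *Fgfr3* (Pearson's r of log2 CPM 0.83 over 12 libraries), followed in size by *Fgf22* and *Fgfr1* (−0.79), *Fgf2* and *Fgfr1* (0.76), *Fgf5* and *Fgf22* (0.74), *Fgf7* and *Fgf22* (−0.72) and *Fgfr1* and *Fgfr3* (−0.70). Among 13646 genes compared (mean log2 CPM not under 1), those most like each member over the 12 libraries were *Piezo1* (r = 0.98), *Myo1c* and *Mgat1* (0.97 each) for *Fgfr1*, *Wnk2* (0.96), *Acot2* (0.95) and *Gata3* (0.94) for *Fgfr2*, and *Sh3rf2* (0.97), *Ptpn3* and *Foxq1* (0.96 each) for *Fgfr3*. For the ligands they were *Sorl1*, *Klf7* (0.96 each) and *Il1r1* (0.95) for *Fgf7*, *Hace1* (0.94), *Mns1* and *Rps6ka6* (0.91 each) for *Fgf22*, and *Sort1* (0.89), *Lpl* (0.86) and *Pank3* (0.85) for *Fgf10*. They were *Lrrc20* (0.95), *Syt7* (0.94) and *Adh6b* (0.92) for *Fgf5*, *Txndc16* (0.95), *Smim14* (0.92) and *Sepp1* (0.91) for *Fgf18*, and *Lgals3bp* (0.93), *C1qtnf1* (0.90) and *Lpgat1* (0.89) for *Fgf2*. These are descriptions of likeness over the same 12 libraries.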

How the data were processed

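Bulk RNA-seq libraries of 12 scars, 1 per mouse, were compared in 4 groups taken from the labels. The authors deposited raw counts per gene, made from stranded mRNA libraries with fastp 0.20.0, HISAT2 2.1.0 (GRCm38) and featureCounts 2.0.0. The annotation and strand setting are not given in the sources used here. Library totals of 41536788 to 64644293 counts limit precision mainly for genes with few counts. Genes were filtered (filterByExpr) and TMM-normalized, and 1 model over the 12 libraries was fitted with edgeR 4.0.16 (quasi-likelihood, robust, 8 residual degrees of freedom) in R 4.3.3. The scripts were checked on simulated data. Figures were drawn with matplotlib 3.10.9. Alternatives used DESeq2 1.42.0, limma 3.58.1 and other filters, scalings and sets of libraries. The members and lists were chosen with earlier results of these data known. From each pathway list and comparison, the called genes (up to 4) or otherwise that with the smallest p could be named, and other genes were named after their values were seen.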

Additional observations from a re-analysis of the deposited data

How the results depend on the processing

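With 3 mice per group, calls were lost or gained when single libraries were left out. Of 936 values of the 9 genes under alternatives, 902 kept direction and side of the threshold, 6 lost the call (all Fgfr3 with traction in Tem1WT/WT mice), 9 gained one and 19 turned sign. The cause was not tested.

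The number of called members with traction in Tem1WT/WT mice (1) was 5 with DESeq2, 0 with only the 6 libraries compared, and 0 to 2 when each library was left out in turn. With genotype under traction it was 2 with DESeq2. Genes called with traction in Tem1WT/WT mice (1725) were 1011 with no filter, 4047 with DESeq2, 0 with only the 6 libraries and 0 to 2861 with a library left out. With traction in Tem1lacZ/lacZ mice (0) they were 23 with DESeq2 and 0 to 73 with a library left out. Between genotypes with traction (20) they were 2309 with DESeq2, 0 with only the 6 libraries and 3 to 1421 with a library left out. In sham (2) they were 0 with a filter of 10 counts in every library, 27 with DESeq2, 0 with limma-voom, 1 with only the 6 libraries and 1 to 2 with a library left out, and for the interaction (0) they were 69 with DESeq2 and 0 to 31. With the longest transcript, 7 of 9 genes kept their rank by level per length. With upper quartile scaling the median of all genes was −0.12 with traction in Tem1WT/WT mice and 0.14 between genotypes with traction, and 43.9% of the calls with traction in Tem1WT/WT mice were higher, against 61.3%.

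Replicate numbers were not used in the main model, and the labels do not say whether same-numbered libraries share a batch. Of 18 same-numbered pairs across groups 7 had correlated deviations over 0.1 (range −0.32 to 0.25), and 8 of 12 libraries were closest to their own number. The 36 other pairs across groups ranged from −0.40 to 0.37. Whether same-numbered libraries share a batch was not tested. With the replicate number as a block, 1467 genes were called with traction in Tem1WT/WT mice and 15 between genotypes with traction, and 1 member was called as before. Of the 9 pathway calls in these comparisons, that of Grb2 with traction in Tem1WT/WT mice and that of Gpc1 between genotypes with traction were lost with the block.

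Signs turned in 8 results. With a block, Fgf18 was −0.06 between genotypes with traction, and with limma-voom it was 0.01 in sham. With each library left out in turn, log2 fold changes for traction in Tem1lacZ/lacZ mice ranged from −0.59 to 0.33 for Fgf2, −0.36 to 0.59 for Fgf5 and −0.40 to 0.75 for Fgf10. Between genotypes Fgf18 ranged from −0.47 to 0.37 with traction and −0.36 to 0.27 in sham, and Fgf22 from −0.41 to 0.10 in sham. For the interaction Fgf18 ranged from −0.39 to 0.48 and Fgf2 from −0.90 to 0.03.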
